A study of Mus musculus with 33 samples.

Results

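The 28 genes described here encode enzymes that build cholesterol and proteins that sense, move, export or store it. They were taken as a list of named genes, all 28 of which were found among the 32285 gene identifiers counted per library. They comprised 18 enzymes of synthesis (7 from acetyl-CoA to farnesyl diphosphate, 3 from there to lanosterol and 8 from lanosterol to cholesterol), 4 regulators, and 6 proteins of transport, uptake control, efflux and storage. The study engineered tumours in mouse colon epithelium with a set of alleles together called AKP, among them loss of *Apc* and *Trp53*. It compared lines started in vivo, in mini-colons (colon epithelium grown in a tube-shaped scaffold) and in ordinary organoids, which are closed spheres of epithelium.

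All 33 libraries came from cells cultured as organoids and starved in basal medium before RNA was taken. In vivo AKP (6 libraries) was grown from tumours that arose in the colon of *Cdx2-creERT2* mice with the AKP alleles, Apc fl/fl and Trp53 fl/fl among them, after tamoxifen, an intestinal promoter driving the recombinase. Mini-colon AKP comprised 5 lines, #i to #v, with 3 libraries each. They came from OptoCre cells, in which doxycycline and blue light switch on a recombinase delivered by lentivirus, mutated inside mini-colons. The paper calls #v crypt-enriched and #i lumen-enriched, after the site of their tumours, and names no site for the other lines in its text. Organoid AKP (6 libraries) was mutated by light as organoids and passaged alongside, and control organoids (6 libraries) carried the same alleles without induction or treatment. The assay was QuantSeq, a method that sequences a short tag from the 3′ end of each transcript and so yields tag counts per gene. The paper describes the bulk RNA-seq samples as independent sets and the libraries of the organoid and mini-colon AKP lines as separate cultures, so that p-values measure the spread between samples of a line, and whether any came from separate mice is not given in the sources used here.

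Cells make cholesterol from acetyl-CoA by way of mevalonate, squalene and lanosterol, and the early steps also feed isoprenoids for prenylated proteins and ubiquinone. The transcription factor SREBP2 (*Srebf2*) is held in the endoplasmic reticulum by the escort protein SCAP and the anchors INSIG1 and INSIG2 while sterols are plentiful. It moves to the Golgi, is cleaved and switches on the genes of the pathway when sterols fall, binding sterol regulatory elements together with the factor NF-Y, which binds CCAAT. Oxysterols activate the LXR receptors instead, which induce the efflux pumps ABCA1 and ABCG1 and the ubiquitin ligase MYLIP in many cell types.

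The promoter stretches below are shown because they hold the letters bound by these factors in members on which the results turn. They were read from RefSeq start-site windows (GRCm38.p6 table, 250 bases before to 50 after the start) and placed by exact match on GRCm39, with 20 bases on either side. Capitals mark TCACNCCAC, a sterol regulatory element, in the first stretch. In the others they mark CCAAT, which reads ATTGG on the other strand. Positions count from the start site, both motifs were searched on both strands, and no marked match overlaps another. The lower-case ccaat near the end of the *Insig2* stretch is a further match. Other CCAAT matches, not shown, lay at -237, -176 and 10 in *Hmgcs1* and at -20, 8 and 34 in *Nsdhl*. In *Hsd17b7* they lay at -165 and -12, and in *Insig2* at -136.
*Hmgcs1*, chr13:120151730-120151778 on the plus strand, sterol regulatory element from -137: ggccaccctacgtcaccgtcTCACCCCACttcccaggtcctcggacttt
*Hmgcs1*, chr13:120151822-120151866 on the plus strand, CCAAT from -45: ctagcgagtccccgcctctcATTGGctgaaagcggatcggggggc
*Nsdhl*, chrX:71961998-71962042 on the plus strand, CCAAT from -109: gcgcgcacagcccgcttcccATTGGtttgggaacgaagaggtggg
*Hsd17b7*, chr1:169796823-169796867 on the minus strand, CCAAT from -73: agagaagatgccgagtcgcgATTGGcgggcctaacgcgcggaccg
*Insig1*, chr5:28276174-28276218 on the plus strand, CCAAT from -216: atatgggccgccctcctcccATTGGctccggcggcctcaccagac
*Insig2*, chr1:121260340-121260384 on the minus strand, CCAAT from -46: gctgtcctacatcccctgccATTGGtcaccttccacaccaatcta
*Soat1*, chr1:156301904-156301948 on the minus strand, CCAAT from -30: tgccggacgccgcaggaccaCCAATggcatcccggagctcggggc

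A window was given for 22 of the 28 genes, and 19 of these 22 (86.4%) held CCAAT in at least 1 window, against 41.1% of all 27025 genes with a window. TCACNCCAC was found in 1 member, *Hmgcs1*, against 1.44% of all genes. The LXR element known as DR4, a direct repeat, was in none of the members' windows and in 0.0152% of all 32851 windows. These are matches of letters and not measured sites, and *Fdps*, *Fdft1*, *Sqle*, *Stard4*, *Abcg1* and *Npc1* had no window.

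Libraries held a median of 3748649 counts (lowest 2438672, highest 8256526), and those of the same line and code letter correlated at r of 0.978 to 0.991 over log2 CPM. CPM are tag counts relative to the library total as scaled by TMM. *Trp53* tags, which as 3′ tags do not report recombination, were at 19.2 to 34.2 CPM in in vivo AKP and 14.4 to 19.1 in control. They were at 1.07 to 3.77 CPM in organoid AKP, 1.97 to 3.93 in #i, #ii, #iv and #v, and 7.36 to 11.7 in #iii. The library codes carry a letter, E or F, whose meaning is not given in the sources used here and which was treated as a possible batch. Control, organoid AKP and in vivo AKP had 3 libraries of each letter, whereas lines #i to #iii were all E and lines #iv and #v all F. Control libraries held 2660584 to 2841963 counts in E and 6057927 to 7852555 in F. Organoid AKP held 2751409 to 3594398 in E and 5613299 to 7232715 in F, and in vivo AKP 5239486 to 5525914 and 2438672 to 6735813. The part of depth in the differences between letters was not tested. The summed level of 9 colon epithelial markers was 2880 to 3560 CPM in the AKP lines, against 10100 to 11300 CPM in control, and *Cdx1* was at 0 in every library of in vivo AKP, #i and #iii. Fibroblast and muscle markers summed to at most 1.53 CPM in any library, with *Lum* at 0 in all of them. Endothelial markers summed to 0.119 to 2.3 CPM and immune markers to 2.29 to 15.7 CPM. Among the immune markers *Cd68* had 8 to 95 counts per library, and no other had more than 4. In bulk RNA, fewer cells of a type and less RNA per cell cannot be told apart, and the part that epithelial differentiation takes in the differences from control was not tested.

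The summed level of the 18 synthesis enzymes put the control organoids above every AKP line, with no library overlapping. Levels are mean CPM ± SD with n = 3 libraries per line and letter. In vivo AKP summed to 2514 ± 102 CPM in F and 2127 ± 86.1 CPM in E. Mini-colon lines #i, #ii and #iii, all E, summed to 1767 ± 46.2, 1474 ± 5.87 and 1708 ± 59.0 CPM. Lines #iv and #v, both F, summed to 2270 ± 24.6 and 2229 ± 219 CPM. Organoid AKP summed to 1966 ± 109 CPM in F and 1961 ± 122 CPM in E, and control to 4295 ± 150 CPM in F and 3343 ± 243 CPM in E. From high to low the order was control F, control E, in vivo F, #iv, #v, in vivo E, organoid F, organoid E, #i, #iii and #ii. The libraries overlapped between #iv and #v, #v and in vivo E, in vivo E and organoid F, organoid F and organoid E, and #i and #iii, so these neighbours did not separate.

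**Figure D1:**
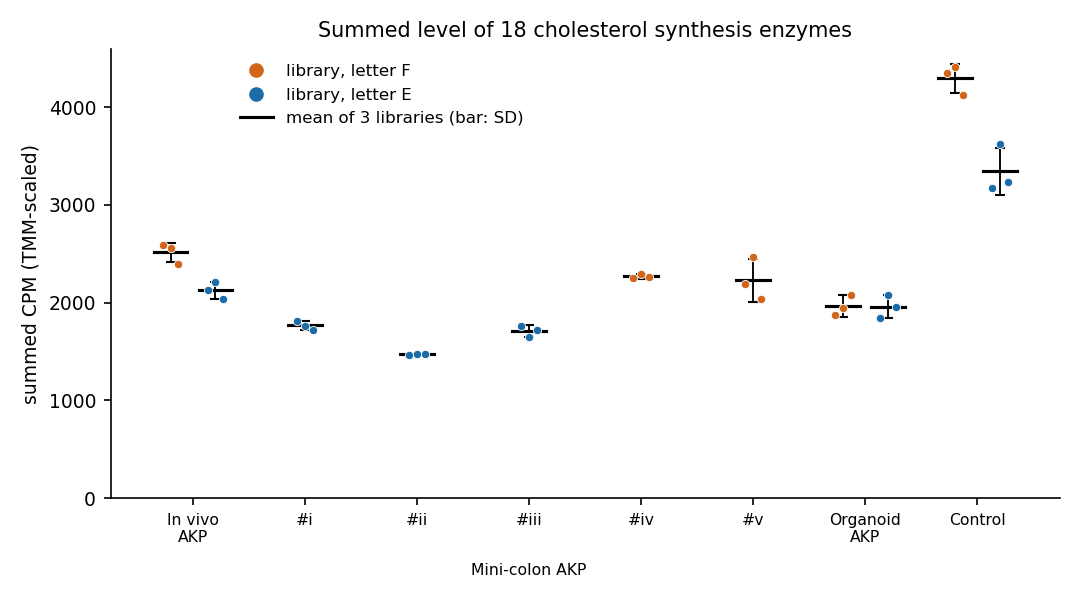
Summed level of the 18 cholesterol synthesis enzymes (CPM, scaled by TMM) in each of the 33 libraries, by line, with letter F in orange, letter E in blue and bars for mean and SD over 3 libraries. Every control library lies at 3175 CPM or above and every AKP library at 2589 CPM or below, with #ii lowest at 1468 to 1480 CPM.

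The comparison of organoid AKP with control sets mutated cells beside unmutated ones, both kept as organoids. The paper reports that healthy organoids did not grow in basal medium, and that tumour organoids were expanded without the added growth factors. The mutations, growth and medium cannot be told apart in this comparison. Nearly the whole synthesis pathway was lower in organoid AKP. Of the 28 genes, 21 fell and 3 rose, where a gene counts as risen or fallen at an adjusted p under 0.05 (edgeR quasi-likelihood test, Benjamini-Hochberg over 13606 genes). Lower calls made up 36.3% of all genes tested and higher calls 39.6%. The median log2 fold change of the members was -0.76, against 0.05 over all genes. None of the 18 enzymes rose, 15 fell and all 18 were fitted below 0, with a median of -0.85. In 15 of the 28 genes every organoid AKP library was below every control library, as was the case for 23.8% of all genes.

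Within the mevalonate arm 4 of 7 enzymes fell. *Hmgcs1*, the synthase that makes HMG-CoA and the member with the sterol regulatory element shown above, had 403, 437 and 513 CPM as lowest, median and highest in organoid AKP, against 1142, 1240 and 1421 CPM in control. The groups were far from overlapping, with a log2 fold change of -1.49 (SE 0.06, adjusted p = 2.15e-29). *Mvd*, the decarboxylase that yields isopentenyl diphosphate, fell by 1.29 on the log2 scale (SE 0.09) and *Mvk*, mevalonate kinase, by 0.75 (SE 0.10). *Acat2* (acetoacetyl-CoA thiolase), *Pmvk* (phosphomevalonate kinase) and *Idi1* (isopentenyl diphosphate isomerase) stood at -0.10, -0.11 and -0.12 and were not called. *Fdps*, farnesyl diphosphate synthase, was at -0.15 (adjusted p = 0.0237), which was 0.117 without control replicate 2. *Fdps* values are uncertain, since its 3′ end matches the unlisted locus *Gm3571* at 98.0% over 248 bases, so its tags could be split between copies.

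All 3 enzymes from farnesyl diphosphate to lanosterol fell, *Fdft1* (squalene synthase) by 1.11, *Lss* (lanosterol synthase) by 0.93 and *Sqle* (squalene epoxidase) by 0.78 on the log2 scale. All 8 enzymes from lanosterol to cholesterol fell as well, with a median of -0.93. *Nsdhl*, a dehydrogenase that helps to strip the methyl groups from lanosterol, had 37.5, 46.1 and 54.0 CPM as lowest, median and highest in organoid AKP, against 89.3, 126 and 144 CPM in control (log2 fold change -1.36, SE 0.08, adjusted p = 2.85e-24). *Hsd17b7*, a ketoreductase of the same step, had 39.9, 55.5 and 62.1 CPM in organoid AKP, against 110, 131 and 158 CPM in control (log2 fold change -1.31, SE 0.08, adjusted p = 1.2e-23). Neither gene overlapped between the groups. *Sc5d*, a sterol desaturase, was at -0.96, *Cyp51*, the lanosterol demethylase, at -0.94 and *Ebp*, a sterol isomerase, at -0.91. *Dhcr7*, a reductase of the last steps, was at -0.47, *Msmo1*, the methylsterol oxidase, at -0.44 and *Tm7sf2*, a sterol reductase, at -0.38. The last 3 of these overlapped between the groups although they passed the test.

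**Figure D2:**
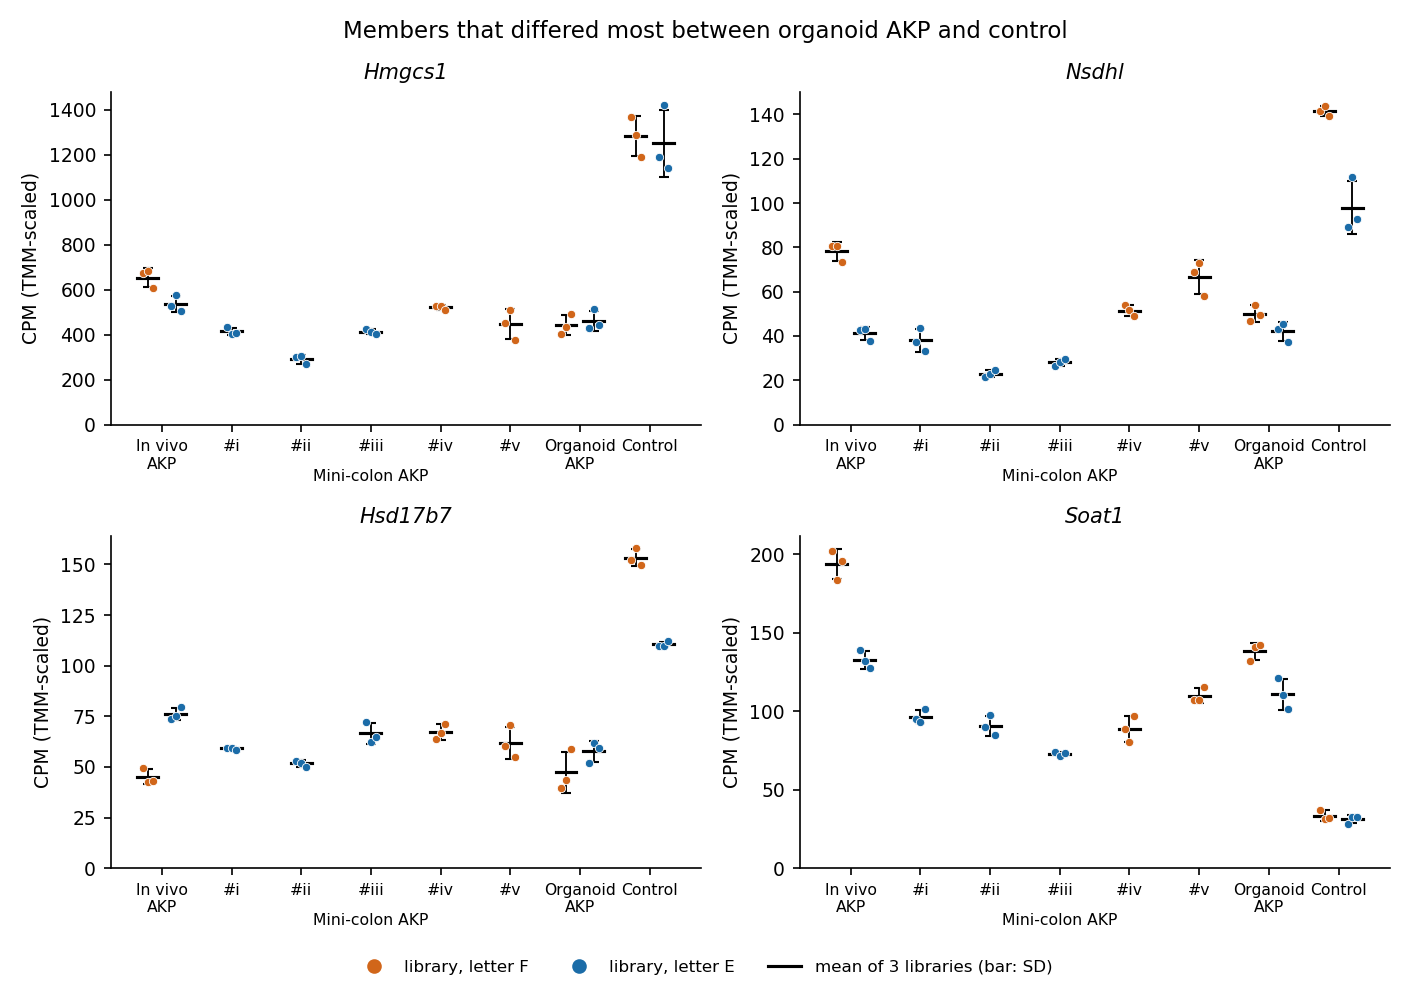
Level (CPM, scaled by TMM) of *Hmgcs1*, *Nsdhl*, *Hsd17b7* and *Soat1* in the 33 libraries by line, 1 point per library, with letter F in orange, letter E in blue and bars for mean and SD over 3 libraries. *Soat1* is higher in every organoid AKP library than in any control library, and the other 3 genes are lower in every one.

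Among the regulators 3 of 4 fell, while the gene of the transcription factor itself did not. *Insig2* fell by 0.99 (SE 0.08), *Insig1* by 0.62 (SE 0.11) and *Scap* by 0.54 (SE 0.08) on the log2 scale. *Srebf2* was at 0.19 (SE 0.07, adjusted p = 0.0153), a call that ended without organoid AKP replicate 1, 2 or 3, where it was at 0.14, 0.05 and 0.09 (adjusted p = 0.0731, 0.567 and 0.306). Of the other 6 proteins, *Npc1*, which exports cholesterol from lysosomes, fell by 1.28 (SE 0.10) while *Stard4*, a sterol carrier, fell by 1.20 (SE 0.06). *Mylip*, the ubiquitin ligase that marks lipoprotein receptors for degradation, fell by 0.69 (SE 0.23).

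*Soat1*, which esterifies cholesterol for storage, moved against the pathway. It had 101, 126 and 142 CPM as lowest, median and highest in organoid AKP, against 28.4, 32.3 and 37.4 CPM in control. No library overlapped, with a log2 fold change of 1.93 (SE 0.07, adjusted p = 8.76e-33), and *Soat1* was the only member in which every organoid AKP library was above every control library (26.1% of all genes were). The efflux pumps were near the limit of detection. *Abca1* had 2 counts in all organoid AKP libraries and 6 in control, a ratio of 0.324 with a 95% interval of 0.032 to 1.81 from counting error alone. *Abcg1* had 20 counts in organoid AKP and 14 in control, a ratio of 1.39 (0.667 to 2.97). It was nevertheless called higher in the fit (adjusted p = 0.0218), with 0 counts in the 3 control libraries of E and 3 to 7 in those of F. That call ended without control replicate 2 or organoid AKP replicate 1 (adjusted p = 0.0506 and 0.0543), so that 1 of the 3 higher calls, *Soat1*, was left without organoid AKP replicate 1. With DESeq2 *Abcg1* and *Srebf2* were not called.

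The fall held in both letters and was deeper in F for many genes. Within F, 23 genes were lower and 2 higher (33.6% and 36.3% of all genes), and within E, 16 were lower and 4 higher (31.7% and 34.9%). The difference between the letters (F minus E) passed the test at 11 genes, of which 10 had a more negative change in F and 1, *Insig2*, a less negative one. Among all genes 8.82% were more negative and 5.12% more positive in F. *Acat2* was at -0.56 within F and 0.37 within E, and both were called (adjusted p = 1.97e-06 and 0.00392), which left its mean near 0. *Pmvk* was likewise at -0.57 within F and 0.34 within E (adjusted p = 2.48e-05 and 0.034). *Hmgcs1* had nearly the same change under both letters, -1.53 within F and -1.44 within E.

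The control libraries themselves differed by letter. In control, 17 members were higher in F than in E and none was lower, beside 13.6% of all genes higher and 8.51% lower. *Mvd* had 163, 170 and 166 CPM in control F, against 90.9, 82.6 and 93.5 CPM in control E, with a log2 difference of 0.90 (SE 0.12). *Msmo1* had 543, 545 and 548 CPM in control F, against 309, 376 and 359 CPM in control E (0.65, SE 0.08). Neither gene overlapped between the letters. In organoid AKP only 5 members were higher in F and 2 lower (15.0% and 15.4% of all genes), *Sqle*, *Mvd*, *Srebf2*, *Insig2* and *Soat1* against *Hsd17b7* and *Insig1*. What the letter stands for was not tested.

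In vivo AKP against organoid AKP sets tumour cells from the animal beside cells mutated in culture. The lines also differed in recombinase, switched on by tamoxifen or by doxycycline and light, and in *Trp53* tags. Origin, recombinase and line cannot be told apart in this comparison. Here the pathway was modestly higher in in vivo AKP. Of the 28 genes 15 rose and 2 fell, against 23.1% and 24.7% of all genes, and the median log2 fold change was 0.22 against -0.01 over all genes. *Abca1* and *Abcg1* pass the filter on low counts only through in vivo AKP, and without them 13 of 26 genes rose and 2 fell with a median of 0.18. By role, 4 of 7 genes of the mevalonate arm, 2 of 3 between farnesyl diphosphate and lanosterol, 4 of 8 after lanosterol and 3 of the 4 genes of transport and storage other than the pumps rose, and none of the 4 regulators did. Overlap between the groups was the rule, since every library of in vivo AKP was above every library of organoid AKP only at *Stard4*, *Abca1* and *Abcg1*, and at no member was it below every one (7.19% and 6.99% of all genes).

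*Stard4* stood at 140, 190 and 311 CPM as lowest, median and highest in in vivo AKP, against 106, 120 and 128 CPM in the organoid AKP libraries (a log2 fold change of 0.75, SE 0.06, adjusted p = 1.63e-15). *Mvd* had 53.7, 79.9 and 117 CPM in in vivo AKP, against 32.7, 52.9 and 58.5 CPM in organoid AKP (0.67, SE 0.09, adjusted p = 9.18e-09). *Npc1* had 24.6, 39.6 and 53.9 CPM in in vivo AKP, against 18.03, 23.8 and 35.7 CPM in organoid AKP (0.64, SE 0.11, adjusted p = 1.04e-06). In *Stard4* the groups were apart, whereas in *Mvd* and *Npc1* in vivo libraries of E reached into the organoid range. *Insig2* went the other way, with 18.4, 29.7 and 43.3 CPM in in vivo AKP, against 27.2, 44.1 and 58.8 CPM in organoid AKP (-0.49, SE 0.09, adjusted p = 8.2e-06).

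The other enzymes that rose in in vivo AKP were *Pmvk* (0.48), *Hmgcs1* (0.39), *Dhcr7* (0.37), *Lss* (0.34), *Nsdhl* (0.31), *Fdft1* (0.26), *Cyp51* (0.26), *Sc5d* (0.25) and *Acat2* (0.20), in log2 units. *Soat1* rose too (0.38, SE 0.06), and *Ebp* fell by 0.25 (adjusted p = 0.00644). The call of *Acat2* ended without organoid AKP replicate 1 or 4 or in vivo AKP replicate 2 (adjusted p = 0.0589, 0.0855 and 0.0986), and that of *Ebp* without organoid AKP replicate 3 (0.159). Without in vivo AKP replicate 4 the lower calls numbered 4 instead of 2. *Mvk*, *Idi1*, *Fdps*, *Sqle*, *Tm7sf2*, *Msmo1*, *Hsd17b7*, *Srebf2*, *Scap*, *Insig1* and *Mylip* were not called. The pumps entered the test only because of their level in in vivo AKP, so their counts are given as a description and not as support. *Abca1* had 6, 9, 7, 8, 5 and 9 counts in the in vivo AKP libraries, against 0, 0, 0, 1, 0 and 1 in organoid AKP, a pooled ratio of 20.8 (95% interval 5.43 to 177 from counting error). *Abcg1* had 82 counts against 20, a ratio of 3.88 (2.36 to 6.68).

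**Figure D3:**
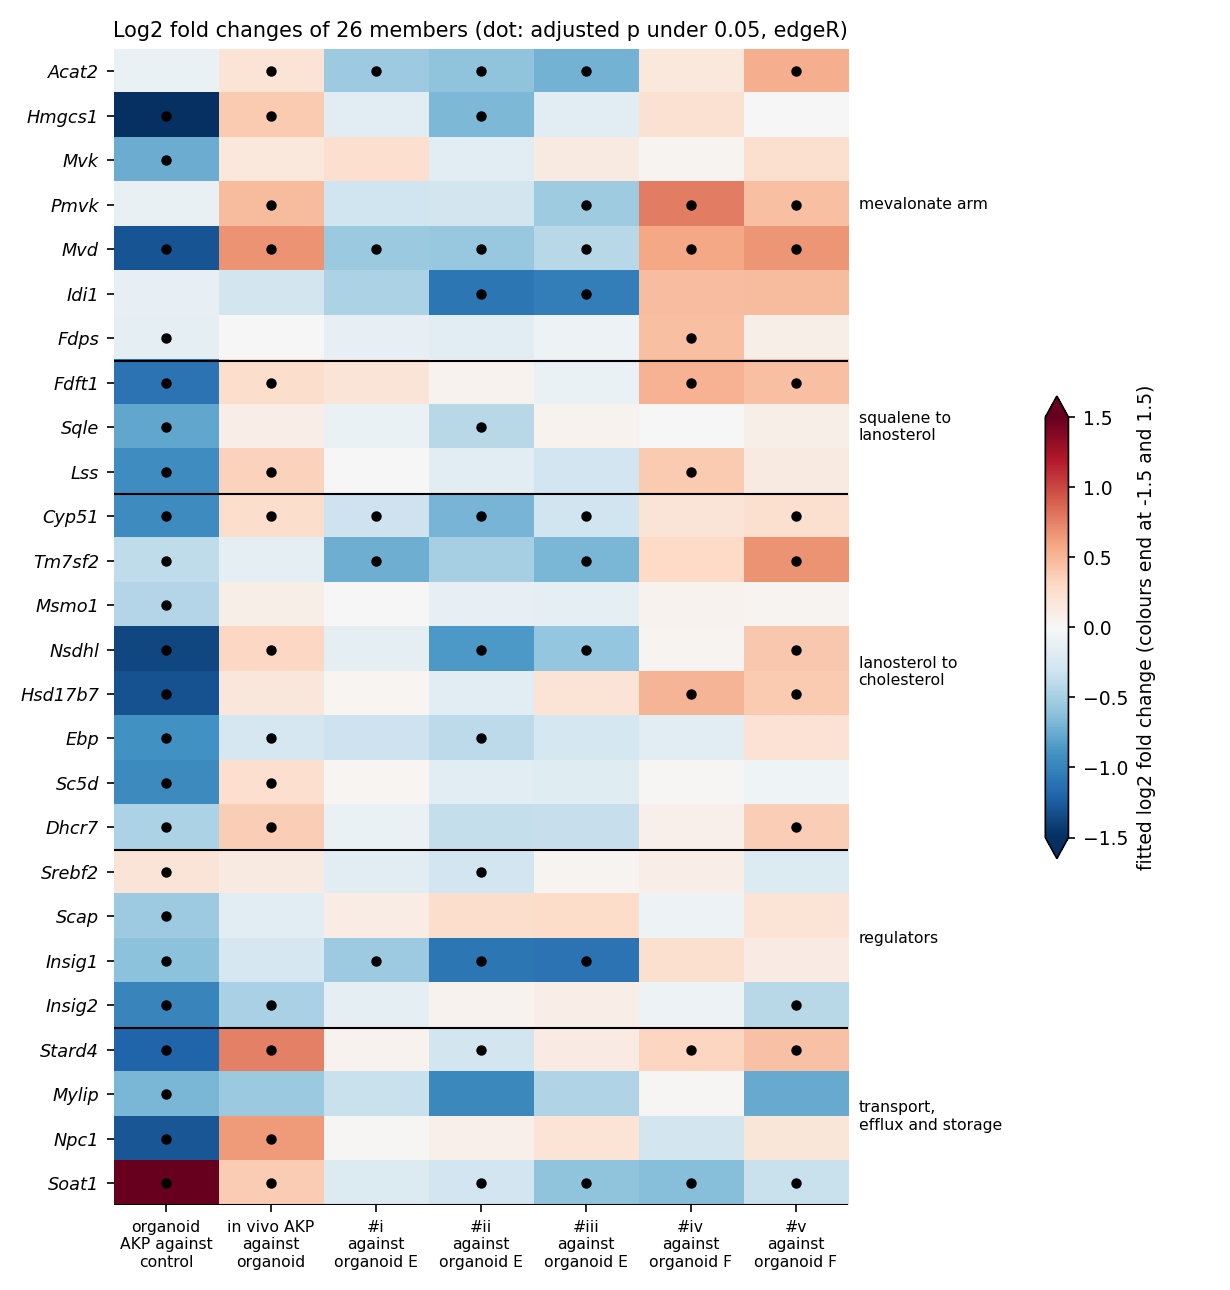
Heat map of the fitted log2 fold change of 26 members (rows, in pathway order; *Abca1* and *Abcg1*, with few counts, are left out) in organoid AKP against control and in the AKP lines against organoid AKP (columns), with blue below 0, red above 0 and a black dot where the adjusted p was under 0.05. In organoid AKP against control the 18 enzymes lie below 0, with *Soat1* at 1.93, and against organoid AKP the called members of #i to #iii lie below 0 and most of those of in vivo AKP, #iv and #v above.

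This rise was uneven between the letters. Within F, 16 members were higher and 1 lower (23.4% and 23.7% of all genes), and within E, 10 were higher and 5 lower (14.4% and 15.3%). The difference between the letters passed the test at 12 genes, 8 with a more positive change in F and 4 with a more negative one, beside 10.5% and 10.3% of all genes. *Insig1* reversed. It had 76.0, 66.4 and 55.2 CPM in in vivo F, against 51.1, 42.2 and 43.8 CPM in organoid F, and 44.3, 47.6 and 41.5 CPM in in vivo E, against 78.3, 106 and 91.1 CPM in organoid E. No library overlapped within either letter, and the change was 0.54 within F (adjusted p = 0.00427) and -1.05 within E (adjusted p = 2.21e-06), with a difference of 1.59 (SE 0.22, adjusted p = 1.47e-06).

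*Stard4* changed by 1.21 within F and 0.28 within E. It had 311, 304 and 234 CPM in in vivo F, against 116, 128 and 122 CPM in organoid F, while in E in vivo AKP had 141, 146 and 140 CPM, against 106, 127 and 119 CPM in organoid AKP. *Tm7sf2* changed by 0.43 within F and -0.69 within E, both called. *Mvk*, *Sqle*, *Srebf2* and *Hsd17b7* were the 4 with a more negative change in F, at -0.20, -0.18, -0.07 and -0.05 within F, none of them called, and at 0.51, 0.38, 0.35 and 0.40 within E, all called. Within in vivo AKP itself 15 members were higher in F than in E and 4 lower (25.5% and 21.7% of all genes). *Tm7sf2* had 34.3, 33.6 and 28.4 CPM in in vivo F, against 9.79, 12.1 and 13.2 CPM in in vivo E, the largest such difference among the members (log2 1.46, SE 0.17).

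**Figure D4:**
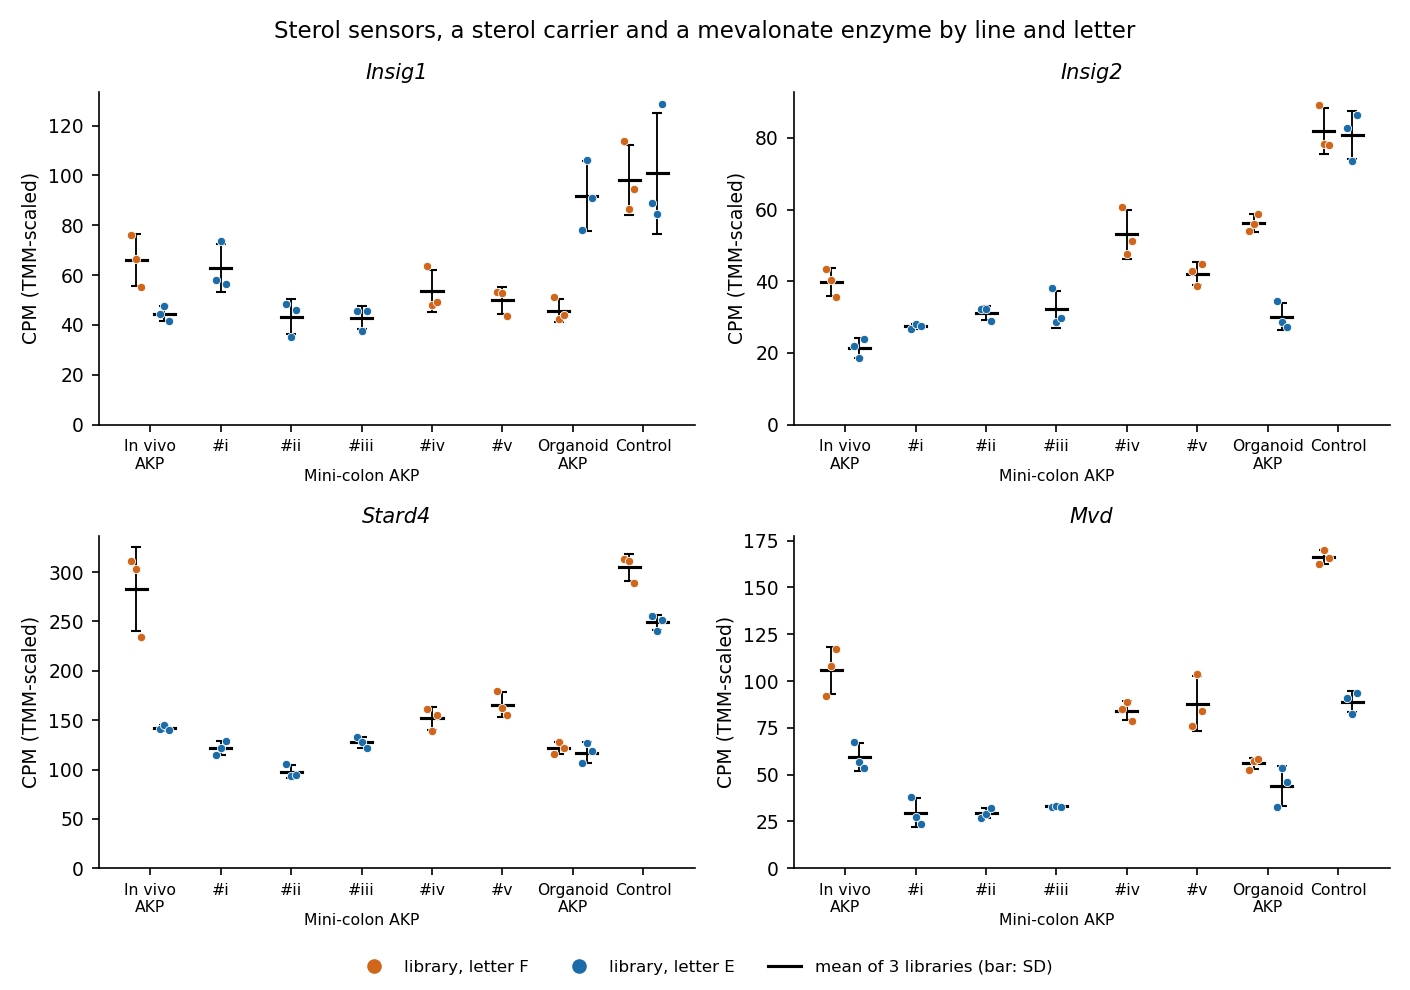
Level (CPM, scaled by TMM) of *Insig1*, *Insig2*, *Stard4* and *Mvd* in the 33 libraries by line, 1 point per library, with letter F in orange, letter E in blue and bars for mean and SD over 3 libraries. For *Insig1* in vivo AKP lies above organoid AKP in F and below it in E, and for *Stard4* the in vivo F libraries stand highest among the AKP libraries.

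**Figure D5:**
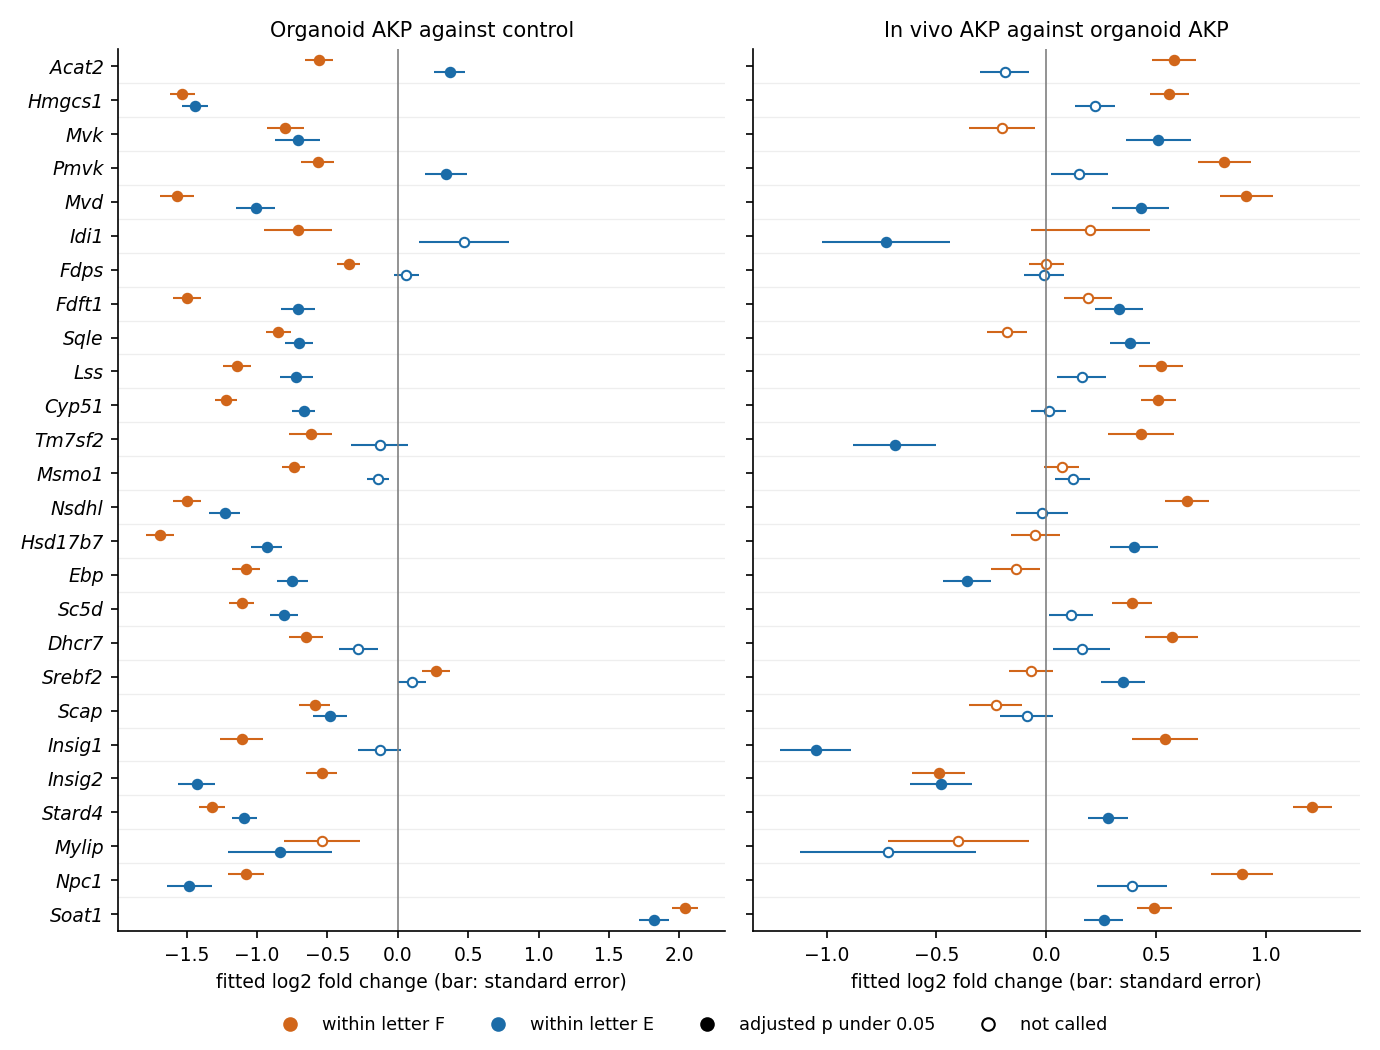
Fitted log2 fold change with SE of 26 members within letter F (orange) and within letter E (blue), for organoid AKP against control in the left panel and in vivo AKP against organoid AKP in the right, filled where the adjusted p was under 0.05. Called under both letters, *Acat2* and *Pmvk* lie on opposite sides of 0 in the left panel, and *Insig1* and *Tm7sf2* in the right.

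Each mini-colon line was set against the organoid AKP libraries of its own letter, so that the 5 comparisons share organoid AKP libraries with one another and with the comparisons above. In the 3 lines of letter E every called member was lower, and in the 2 lines of letter F most of the called members were higher. In each of the 5 lines most members were not called. Line and letter cannot be told apart between these sets. Against organoid AKP of E, #i had no member higher and 5 lower (4.65% and 5.01% of all genes), #ii none higher and 12 lower (12.6% and 12.9%), and #iii none higher and 9 lower (9.27% and 8.96%). Against organoid AKP of F, #iv had 7 higher and 1 lower (5.57% and 5.39%) and #v 10 higher and 2 lower (12.4% and 12%). The median log2 fold change of the members was -0.13, -0.29, -0.22, 0.09 and 0.23 in the order #i to #v. Full separation from the organoid AKP libraries of the same letter was common among all genes. Every library lay higher at 11.9% of all genes in #i, 16.7% in #ii, 15.3% in #iii, 14.6% in #iv and 20.2% in #v. Every library lay lower at 12.2%, 16.8%, 14.4%, 15.4% and 19.5% in the same order. Among the 18 enzymes the counts were 4, 8 and 7 lower in #i to #iii, and 6 and 9 higher in #iv and #v, with none in the other direction. When libraries of both letters were pooled into 1 coefficient per line, so that each line was set against all 6 organoid AKP libraries, most of these calls were lost in all lines but #ii. None of the 5 lower calls in #i was left, and *Srebf2* was called lower in their place. In #ii 10 of the 12 were left, with *Mylip* added, and in #iii 3 of the 9. Of the higher calls 2 of 7 were left in #iv and 1 of 10 in #v.

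In #i the lower genes were *Tm7sf2*, *Mvd*, *Insig1*, *Acat2* and *Cyp51*. *Acat2* had 70.2, 72.9 and 74.9 CPM in #i, against 86.1, 124 and 106 CPM in organoid E (log2 fold change -0.54, SE 0.11, adjusted p = 0.000761). *Insig1* had 57.9, 73.8 and 56.5 CPM in #i, against 78.3, 106 and 91.1 CPM (-0.55, SE 0.16, adjusted p = 0.0228). *Tm7sf2* had 14.04, 7.88 and 12.3 CPM in #i, against 15.7, 21.4 and 19.4 CPM (-0.73, SE 0.21, adjusted p = 0.0178). These 3 genes and *Cyp51* (-0.31) did not overlap. *Mvd*, with 38.3, 27.4 and 23.5 CPM in #i, against 32.7, 53.3 and 45.8 CPM in organoid E (-0.56, adjusted p = 0.0119), did. The count of 5 was 1 without organoid AKP replicate 2, 2 without organoid AKP replicate 3 or #i replicate 3, and 3 without #i replicate 2. *Acat2* was the 1 gene called without any 1 of the 6 libraries, and leaving out 1 library took *Mvd*, *Tm7sf2*, *Insig1* and *Cyp51* to adjusted p as high as 0.184, 0.188, 0.178 and 0.138.

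In #ii the lower members were 8 enzymes, the regulators *Insig1* and *Srebf2*, the carrier *Stard4* and *Soat1*. The call of *Srebf2* ended in 5 of the 6 fits that left out 1 library. *Nsdhl* had 21.5, 22.6 and 24.6 CPM in #ii, against 43.2, 45.5 and 37.5 CPM in organoid E (-0.86, SE 0.13, adjusted p = 4.4e-07). *Cyp51* had 192, 180 and 181 CPM in #ii, against 281, 325 and 291 CPM (-0.70, SE 0.08, adjusted p = 1.71e-09). *Insig1* had 48.5, 35.2 and 46.1 CPM in #ii, against 78.3, 106 and 91.1 CPM (-1.08, SE 0.16, adjusted p = 3.17e-06). None of these 3 overlapped. *Idi1* had 4.31, 3.42 and 2.95 CPM in #ii, against 9.87, 8.45 and 4.31 CPM (-1.08, SE 0.31, adjusted p = 0.00703), which was 0.0853 without organoid AKP replicate 1 and 0.0637 without #ii replicate 3. *Hmgcs1* (-0.67), *Acat2* (-0.60), *Mvd* (-0.57), *Sqle* (-0.42) and *Ebp* (-0.39) made up the other enzymes. Leaving out 1 library each ended the calls of *Mvd*, *Ebp*, *Srebf2*, *Stard4* and *Soat1*, at adjusted p up to 0.0794, 0.246, 0.322, 0.248 and 0.164.

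In #iii *Acat2* had 59.9, 67.8 and 64.9 CPM, against 86.1, 124 and 106 CPM in organoid E (-0.71, SE 0.11, adjusted p = 2.62e-06). *Insig1* had 45.6, 37.7 and 45.6 CPM in #iii, against 78.3, 106 and 91.1 CPM (-1.11, SE 0.16, adjusted p = 4.2e-06). Both genes were apart from organoid AKP. *Tm7sf2* had 15.7, 10.2 and 9.47 CPM in #iii, against 15.7, 21.4 and 19.4 CPM (-0.68, SE 0.20, adjusted p = 0.0127), with the top #iii library just above the lowest of organoid AKP. *Idi1* had 2.76, 4.57 and 2.81 CPM, against 9.87, 8.45 and 4.31 CPM (-1.04, SE 0.32, adjusted p = 0.0143), and overlapped too. *Soat1* (-0.60), *Nsdhl* (-0.58), *Pmvk* (-0.53), *Mvd* (-0.42) and *Cyp51* (-0.30) were the other lower genes. Without organoid AKP replicate 2 the count of 9 was 5, with *Pmvk*, *Mvd*, *Cyp51* and *Tm7sf2* at adjusted p = 0.0501, 0.322, 0.0791 and 0.0846. The call of *Idi1* ended without organoid AKP replicate 1 or 2 or #iii replicate 1 or 3 (adjusted p up to 0.123), that of *Tm7sf2* without #iii replicate 2 or 3 (up to 0.0994), that of *Cyp51* without #iii replicate 2 (0.054), and that of *Mvd* without organoid AKP replicate 3 or any 1 library of #iii (up to 0.132).

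In #iv the higher members were *Pmvk*, *Mvd*, *Fdft1*, *Hsd17b7*, *Fdps*, *Lss* and *Stard4*. *Pmvk* had 64.9, 62.7 and 54.1 CPM in #iv, against 39.5, 33 and 34.3 CPM in organoid F (0.77, SE 0.12, adjusted p = 3.19e-06). *Mvd* had 84.9, 88.7 and 78.6 CPM, against 52.5, 57.1 and 58.5 CPM (0.58, SE 0.12, adjusted p = 0.000497). *Fdft1* had 56.5, 60.5 and 66.3 CPM, against 44.3, 39.7 and 44.5 CPM (0.52, SE 0.11, adjusted p = 0.000695). All 3 were apart from organoid AKP, and so was *Soat1*, the 1 lower gene, with 88.8, 80.7 and 96.9 CPM, against 132, 141 and 142 CPM (-0.64, SE 0.09, adjusted p = 1.59e-07). *Hsd17b7* was at 0.51, *Fdps* at 0.45, *Lss* at 0.39 and *Stard4* at 0.32. The call of *Lss* ended without #iv replicate 1 (adjusted p = 0.0627), and that of *Stard4* without organoid AKP replicate 4 or #iv replicate 1 or 3 (0.0678, 0.0872 and 0.0529).

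In #v the higher members were 9 enzymes and *Stard4*. *Tm7sf2* had 32.9, 37.5 and 41.3 CPM in #v, against 19.8, 27.1 and 24.0 CPM in organoid F (0.67, SE 0.15, adjusted p = 0.000389). *Mvd* had 75.9, 104 and 83.9 CPM, against 52.5, 57.1 and 58.5 CPM (0.66, SE 0.12, adjusted p = 1.85e-05). *Acat2* had 129, 159 and 123 CPM, against 84.5, 102 and 95.1 CPM (0.54, SE 0.10, adjusted p = 2.74e-05). These genes did not overlap with organoid AKP, nor did *Pmvk*, with 49.2, 48.4 and 48.2 CPM, against 39.5, 33 and 34.3 CPM (0.45, SE 0.12, adjusted p = 0.00317). *Fdft1* (0.45), *Stard4* (0.44), *Nsdhl* (0.40), *Hsd17b7* (0.39), *Dhcr7* (0.37) and *Cyp51* (0.24) were also higher, and *Insig2* (-0.42) and *Soat1* (-0.33) lower. The calls of *Cyp51*, *Hsd17b7* and *Dhcr7* ended without #v replicate 2 (adjusted p = 0.184, 0.0951 and 0.121) and without organoid AKP replicate 4 (0.103, 0.077 and 0.069), and that of *Cyp51* without organoid AKP replicate 5 (0.0763).

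Lines of the same letter were also set against each other. In #ii against #i no member was higher and 6 were lower (7.56% and 6.89% of all genes), *Nsdhl* (-0.72), *Insig1* (-0.53), *Hmgcs1* (-0.51), *Cyp51* (-0.39), *Sqle* (-0.32) and *Stard4* (-0.32). In #iii against #i none was higher and 3 were lower (4.92% and 4.75%), *Insig1* (-0.56), *Nsdhl* (-0.44) and *Soat1* (-0.40). In #iii against #ii, 6 were higher and 1 lower (13.0% and 12.3%). *Hmgcs1* had 424, 411 and 405 CPM in #iii, against 300, 306 and 268 CPM in #ii (0.51, SE 0.09, adjusted p = 1.25e-05), with no overlap. The other higher genes were *Sqle* (0.48), *Cyp51* (0.40), *Stard4* (0.39), *Hsd17b7* (0.36) and *Srebf2* (0.33), and the lower one was *Soat1* (-0.31). These 3 comparisons share libraries pairwise. Single libraries moved the first 2 counts, to 3 without #ii replicate 2 or 3 and to 1 without #i replicate 2 or #iii replicate 2.

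In #v against #iv, the pair of letter F, 5 members were higher and 3 lower (7.75% and 7.94% of all genes). *Npc1* (0.46), *Acat2* (0.38), *Nsdhl* (0.37), *Ebp* (0.37) and *Soat1* (0.31) were higher, and *Fdps* (-0.35), *Insig2* (-0.34) and *Srebf2* (-0.31) lower. *Nsdhl* had 69.0, 72.8 and 58.0 CPM in #v, against 53.9, 51.5 and 48.8 CPM in #iv, without overlap (SE 0.11, adjusted p = 0.0132). The count of 8 was 4 without #iv replicate 1 or #v replicate 3 and 5 without #iv replicate 2.

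Some members varied with the rest of the pathway from library to library and others did not. After the mean of each line and letter was subtracted from log2 CPM, *Cyp51* correlated with the mean log2 level of the other enzymes at r = 0.79, *Msmo1* at 0.77, *Hmgcs1* at 0.74 and *Acat2* at 0.68 over the 33 libraries. *Ebp*, *Idi1* and *Insig2* stood at -0.21, -0.20 and -0.32. Counts per library ran from 6 to 64 for *Idi1* and from 1043 to 8745 for *Hmgcs1*, but from 168 to 1358 for *Ebp* and from 184 to 1032 for *Acat2*. The part of counting noise in these correlations was not tested. The libraries share depth and letter, so these values are a description.

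Other genes of sterol and isoprenoid metabolism did not follow 1 direction. Among all genes tested, 39.6% were higher and 36.3% lower in organoid AKP against control. The shares were 23.1% and 24.7% in in vivo AKP against organoid AKP. In organoid AKP against control, 2 of 9 genes of the isoprenoid branches were higher and 2 lower, 4 of 10 genes of SREBP processing and sterol-regulated degradation were higher and 3 lower, and 7 of 18 tested genes of sterol handling and LXR signalling were higher and 10 lower. *Lipa*, the lysosomal lipase that frees cholesterol from esters, was at -5.92 (adjusted p = 1.88e-45), and *Soat2*, an enzyme of the same reaction as *Soat1*, at 3.15 (adjusted p = 2.89e-20). In in vivo AKP against organoid AKP the counts were 3 higher and 1 lower, 1 higher and 5 lower, and 7 higher and 1 lower in the same order of lists. *Cyp27a1*, which makes an oxysterol, was at 1.74 (adjusted p = 1.99e-11), and *Soat2* at -1.18 (adjusted p = 1.77e-08). In the mini-colon lines *Soat2* was at -1.22 in #iv and -1.97 in #v (adjusted p = 0.00033 and 4.22e-09).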

How the data were processed

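The authors aligned QuantSeq 3′ reads of 33 mouse libraries to GRCm39 with STAR and, per the labels, used R 4.1.2, edgeR and limma. The deposited values are raw counts per gene, whole numbers without normalization. The counting tool, annotation and strand setting are not given in the sources used here. Identifiers were named from GENCODE M39. The 611 without a name (6.85% of counts) stayed in the totals and the tests.

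In R 4.3.3, edgeR 4.0.16 scaled the counts by TMM, kept 13606 genes that reached 1 CPM in 3 or more libraries, and applied the robust quasi-likelihood test in a single model. The model had a coefficient for each of the 11 combinations of line and code letter, leaving 22 residual degrees of freedom. Contrasts between lines with both letters are the mean of the differences within E and F. Benjamini-Hochberg adjustment over all genes used a threshold of 0.05. The test was checked on simulated data. Alternatives were DESeq2 1.42.0, limma-voom 3.58.1, RLE or library-total scaling, other filters, single letters, letters pooled into 8 lines, and leaving out each library. Ratios of pooled low counts carry exact 95% binomial intervals, which cover counting error only. Promoters and 3′ ends were searched in Python 3.11.15 and with BLAST 2.17.0.

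The 28 members and the other gene lists were chosen with earlier results of these data known. Per-library values were given for up to 4 called members per comparison with the largest absolute log2 fold change and at least 5 CPM in the higher group, and other values were added after they were seen.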

Additional observations from a re-analysis of the deposited data

Results flagged for a closer look

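Among 84 groups of 6 libraries, 1 per member and line, 3 held a library far from the other 5, where chance gives about 1 in 20 groups. All 3 were in organoid AKP. *Mvk* was low in replicate 1 at 19.73 CPM with the nearest at 27.94, *Lss* low in replicate 2 at 42.24 CPM with the nearest at 50.55, and *Ebp* high in replicate 3 at 109.4 CPM with the nearest at 88.05.

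The change in in vivo AKP against organoid AKP differed between letters at 12 members (F minus E, edgeR contrast, adjusted p under 0.05). The differences were 1.59 for *Insig1*, 1.13 for *Tm7sf2*, 0.93 for *Stard4*, 0.76 for *Acat2*, 0.66 for *Nsdhl*, 0.66 for *Pmvk*, 0.50 for *Cyp51*, 0.34 for *Hmgcs1*, -0.42 for *Srebf2*, -0.45 for *Hsd17b7*, -0.56 for *Sqle* and -0.71 for *Mvk*. The change in organoid AKP against control differed at 11 members, by 0.89 for *Insig2*, -0.41 for *Fdps*, -0.55 for *Cyp51*, -0.56 for *Mvd*, -0.61 for *Msmo1*, -0.76 for *Hsd17b7*, -0.79 for *Fdft1*, -0.91 for *Pmvk*, -0.92 for *Acat2*, -0.98 for *Insig1* and -1.18 for *Idi1*. Both comparisons use the same organoid AKP libraries. The letter's meaning was not tested.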

How the results depend on the processing

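The lower calls in organoid AKP against control and the higher calls in in vivo AKP against organoid AKP stayed within 1.5 times their counts under every alternative run, at 20 to 23 and 14 to 18 when 1 library was left out. With DESeq2, and with letters pooled into 8 lines, 1 member instead of 3 was higher in organoid AKP against control (1 to 3 when 1 library was left out). With letter F alone 1 member, and with letter E alone 4, instead of 2 were lower in in vivo AKP (2 to 4 when 1 library was left out). Pooling letters gave 1 lower call in #i, *Srebf2*, which was none of the 5, and left 3 of 9 lower calls in #iii, 2 of 7 higher calls in #iv and 1 of 10 in #v, 0 of 2 lower calls in #v, and gave 1 higher call each in #ii and #iii instead of 0. Scaling by library totals gave 15 lower calls in #iii, where it moved the median of all genes to -0.104, and 5 instead of 3 in #iii against #i. The cause was not tested.

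Leaving out 1 library gave 1 to 6 lower calls in #i, 0 to 1 higher and 8 to 12 lower in #ii, 5 to 9 lower in #iii, 5 to 8 higher in #iv, and 7 to 10 higher and 2 to 3 lower in #v. It gave 3 to 6 calls in #ii against #i, 1 to 3 in #iii against #i, 5 to 8 in #iii against #ii and 4 to 7 in #v against #iv. Letter F against E kept 14 to 16 calls in control, 5 to 7 in organoid AKP and 17 to 18 in in vivo AKP, and the differences between letters 9 to 11 and 9 to 12. Alternatives for comparisons among mini-colon lines and letters, and counts without *Abca1* and *Abcg1*, were added after seeing the data.

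Signs turned within single letters. With E alone *Acat2* was at 0.34 and *Fdps* at 0.03 in organoid AKP against control, and *Acat2* at -0.16 and *Nsdhl* at -0.00 in in vivo AKP against organoid AKP. With F alone *Abcg1* was at -0.10 in organoid AKP against control, and *Tm7sf2* at 0.45 and *Insig1* at 0.55 in in vivo AKP. Same-numbered libraries shared only a number. Their deviations correlated at -0.041 to 0.042 in organoid AKP against control and -0.027 to 0.044 in in vivo AKP against organoid AKP. Against organoid AKP of E they correlated at -0.058 to -0.009 in #i, 0.064 to 0.132 in #ii (other pairs -0.089 to 0.027) and 0.035 to 0.091 in #iii (other pairs -0.051 to 0.012), so that in #ii and #iii every library correlated best with its own number, a hint from the data and not the design. With the replicate number as a block, 24 members were called in organoid AKP against control, the same 24 genes, 18 instead of 17 in in vivo AKP, and 5, 12 and 9 in #i to #iii. No paired analysis was possible for #iv and #v because they share no replicate numbers with organoid AKP of letter F.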
